A study of Mus musculus with 25 samples.

Results

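Deep peaks are the H3K27me3 peaks that lay wholly inside an autosomal protein-coding gene record of the mouse build mm10 and at least 10 kb from both of its ends. They were chosen by position alone, and they numbered 48339 of the 213014 peaks in 3 peak lists. Fibroblast line A held 20677 of 86235 peaks, fibroblast line B 17925 of 81972, and neural progenitor cells (NPC) 9737 of 44807. H3K27me3 is trimethylation of lysine 27 on histone H3, and the study profiled it to follow memory of silencing at Polycomb target genes. Wild-type NPC grown from embryonic stem cells were profiled by CUT&RUN, which cuts out antibody-bound chromatin with a tethered nuclease, in 6 libraries. These were 2 libraries without treatment, 2 with the inhibitors UNC1999 (2 uM) and A395 (4 uM) of Polycomb repressive complex 2 (PRC2), and 2 after both were washed out. The embryonic fibroblasts, 2 lines immortalized with c-myc, gave 12 ChIP-seq libraries (immunoprecipitated, sonicated chromatin) for the mark, 2 per line and genotype. Line A was wild type, Ezh2 -/-, or Ezh2 -/- with a retroviral pMSCV-Ezh2. Line B was wild type, Ezh2 -/- in a reversible form, or rescued at the endogenous Ezh2 gene. The other 7 libraries, for RNA polymerase II, H3K4me3, H3K36me3 and input in line A, were not used here.

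Each peak list belongs to a cell system and not to a library, and the names of the fibroblast lists join the wild-type and the Ezh2 -/- libraries of the line. Which libraries entered each call is not stated in the sources read, so genotypes and treatments were not compared. The lists give positions without heights, the depth behind them is unknown, and NPC and fibroblasts also differ in assay. With 1 list per system and no replicate list, and with peaks and genes that are not replicates of a condition, every difference below is a description without a test. A list pools many cells, so a weak mark in all of them and a strong mark in a part of them cannot be told apart. Where only 1 list has a peak, the signal of the other systems may still lie just under the calling limit. Cell identity could not be checked from peak positions.

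PRC2 writes H3K27me3 through its subunit Ezh2 and keeps developmental genes silent in lineages that do not use them. The complex is best known at CpG-rich promoters, from which the mark can spread over neighbouring nucleosomes, and transcription through a gene body counteracts it. A peak far from both gene ends can therefore be part of a block that covers a silent gene, an internal promoter, or a separate patch in an intron. Genes long enough to hold such peaks are often genes of neurons, with large introns and several alternative starts.

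Internal transcription starts are shown first, since they are the only annotated promoters that a deep peak can cover in its own host gene. RefSeq gave 1487 starts that lay at least 10 kb inside the record of their gene, in 1077 genes. Line A deep peaks covered 174 of them (11.7%, 95% exact binomial interval 10.1 to 13.4%). Line B deep peaks covered 155 (10.4%, interval 8.92 to 12.1%), and those of NPC covered 111 (7.46%, interval 6.18 to 8.92%). Intervals here and below cover counting error only. By base pair, deep peaks covered 8.51%, 6.28% and 3.83% of all gene interiors. All 3 lists covered 24 starts. The windows of 300 bases printed here run from 250 bases before the start to 50 after it (RefSeq, build GRCm38.p6, the assembly of mm10), with CpG dinucleotides in capitals. They were picked from these 24 to show windows from CpG-rich to CpG-poor. The 24 windows held a median of 9 CpG, against 6 for the 1175 internal starts covered in no list. The printed windows thus lean to the CpG-rich side of the 24. The first lies in Phf24 (chr4:42916993-42917292, plus strand, 44.6 kb from the 5' end of the record) and holds 56 CpG. The second lies in Anks1b, which encodes a postsynaptic ankyrin-repeat protein (chr10:90829593-90829892, plus strand), and holds 45. The Lingo1 window (chr9:56635599-56635898, minus strand) holds 32, and Lingo1 encodes a neuronal partner of the Nogo receptor. The Unc13b window (chr4:43058703-43059002, plus strand) holds 20, and Unc13b encodes a protein that primes synaptic vesicles. The Dlg2 window (chr7:91090536-91090835, plus strand) holds 3 and lies 614.6 kb into the gene, which encodes the synaptic scaffold PSD-93.
Phf24: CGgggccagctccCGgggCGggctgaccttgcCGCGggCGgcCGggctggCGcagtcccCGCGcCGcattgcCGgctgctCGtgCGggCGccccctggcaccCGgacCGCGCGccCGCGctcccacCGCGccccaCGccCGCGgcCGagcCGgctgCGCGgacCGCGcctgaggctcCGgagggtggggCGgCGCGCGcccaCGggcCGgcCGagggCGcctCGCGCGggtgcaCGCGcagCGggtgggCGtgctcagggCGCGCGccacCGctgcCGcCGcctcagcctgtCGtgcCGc
Anks1b: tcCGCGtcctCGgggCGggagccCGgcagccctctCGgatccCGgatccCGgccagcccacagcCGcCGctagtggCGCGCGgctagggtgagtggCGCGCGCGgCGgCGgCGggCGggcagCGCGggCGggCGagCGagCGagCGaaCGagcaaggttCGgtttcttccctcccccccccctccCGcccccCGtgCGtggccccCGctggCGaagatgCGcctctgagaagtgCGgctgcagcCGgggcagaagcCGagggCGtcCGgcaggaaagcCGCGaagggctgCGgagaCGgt
Lingo1: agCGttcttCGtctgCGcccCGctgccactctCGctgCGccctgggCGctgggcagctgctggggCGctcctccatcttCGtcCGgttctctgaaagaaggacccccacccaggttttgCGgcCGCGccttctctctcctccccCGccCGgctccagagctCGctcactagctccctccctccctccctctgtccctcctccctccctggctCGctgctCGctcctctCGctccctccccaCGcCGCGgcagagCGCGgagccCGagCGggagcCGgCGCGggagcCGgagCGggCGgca
Unc13b: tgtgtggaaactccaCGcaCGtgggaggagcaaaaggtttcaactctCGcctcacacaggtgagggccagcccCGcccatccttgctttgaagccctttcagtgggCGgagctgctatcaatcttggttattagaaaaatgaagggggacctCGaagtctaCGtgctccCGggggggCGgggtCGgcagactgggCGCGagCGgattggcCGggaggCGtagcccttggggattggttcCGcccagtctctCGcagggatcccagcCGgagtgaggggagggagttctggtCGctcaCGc
Dlg2: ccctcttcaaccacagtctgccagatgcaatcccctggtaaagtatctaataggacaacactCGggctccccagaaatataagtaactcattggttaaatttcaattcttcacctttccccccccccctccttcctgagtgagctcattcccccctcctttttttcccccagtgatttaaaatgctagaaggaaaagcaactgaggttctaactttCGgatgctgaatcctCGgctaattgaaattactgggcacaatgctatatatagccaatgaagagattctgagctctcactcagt

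In NPC, starts rich in CpG were covered more often than starts poor in CpG, while in line A the shares were alike. The motif searched was CG, which reads alike on both strands and stood in 97.8% of the internal windows and in 95.6% of all 20085 windows of autosomal protein-coding genes. Internal windows held a median of 6 CpG, against 14 for all windows. Of the 386 internal starts with 15 or more CpG, NPC deep peaks covered 46 (11.9%, interval 8.86 to 15.6%), and of the 1101 with fewer they covered 65 (5.90%, interval 4.59 to 7.46%). In line A the shares were 11.7% (interval 8.63 to 15.3%) and 11.7% (interval 9.88 to 13.8%), and in line B 12.2% (interval 9.09 to 15.9%) and 9.81% (interval 8.12 to 11.7%). Starts of 1 gene can share a peak, and the limit of 15 was set after the data were seen. Most deep peaks covered no annotated start of their gene. Those that did numbered 154 (line A), 131 (line B) and 92 (NPC), under 1% of each list's deep peaks. Their median widths were 6614, 7527 and 6223 bp against 1335, 1024 and 1365 bp for the rest. A wider peak covers a start more easily by size alone, so this gap says nothing particular about starts.

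Deep peaks made up 23.98% of the line A list (interval 23.7 to 24.3%), 21.9% of the line B list (interval 21.6 to 22.2%) and 21.7% of the NPC list (interval 21.3 to 22.1%). They spanned 60.9, 44.9 and 27.4 Mb, or 22.03%, 19.1% and 20.03% of the peak length. Their median width was 1346 bp (line A), 1034 bp (line B) and 1377 bp (NPC), close to the 1445, 1152 and 1480.5 bp of the other peaks. The rule caps the width, since a peak must fit inside the interior of a gene. Most deep peaks were narrow while a few held much of the length. The 1201 line A deep peaks of 10 kb or more were 5.81% of the number and 34.6% of the length, the 810 of line B 4.52% and 33.3%, and the 432 of NPC 4.44% and 32.5%. Peaks just inside the limit resembled those just outside it. In line A 532 peaks lay 10 to 11 kb from the nearest end (median width 1536.5 bp) and 542 lay 9 to 10 kb from it (1371 bp). Line B had 479 and 510 (1070 and 983 bp), and NPC 241 and 230 (1367 and 1403.5 bp).

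Cover fell from the 5' end into the gene, more slowly beyond 10 kb, and in line B and NPC it was highest around that end. Among 1772 genes of 100 kb or more whose strand was known, NPC peaks covered 18.2% of the bases in the first kb, 8.29% between 5 and 10 kb, 5.68% between 10 and 20 kb and 4.57% between 40 and 50 kb. The same windows held 20.4%, 12.1%, 10.2% and 8.35% for line B, and in line A 17.0%, 13.9%, 13.4% and 11.6%. The decline was thus steepest in NPC and shallowest in line A. Outside the gene, 5 to 10 kb before the 5' end, peaks covered 9.49% (NPC), 16.7% (line B) and 17.8% (line A). In line A cover was thus nearly level up to the 5' end and fell only inside the gene. At the 3' end there was no such summit. There NPC peaks covered 3.92% of the last kb and 4.14% of the bases 40 to 50 kb inside, line B peaks 6.05% and 7.70%, and line A peaks 9.08% and 10.48%. Past the 3' end, 5 to 10 kb outside the gene, cover was 4.07% (NPC), 11.4% (line B) and 11.3% (line A).

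**Figure D1:**
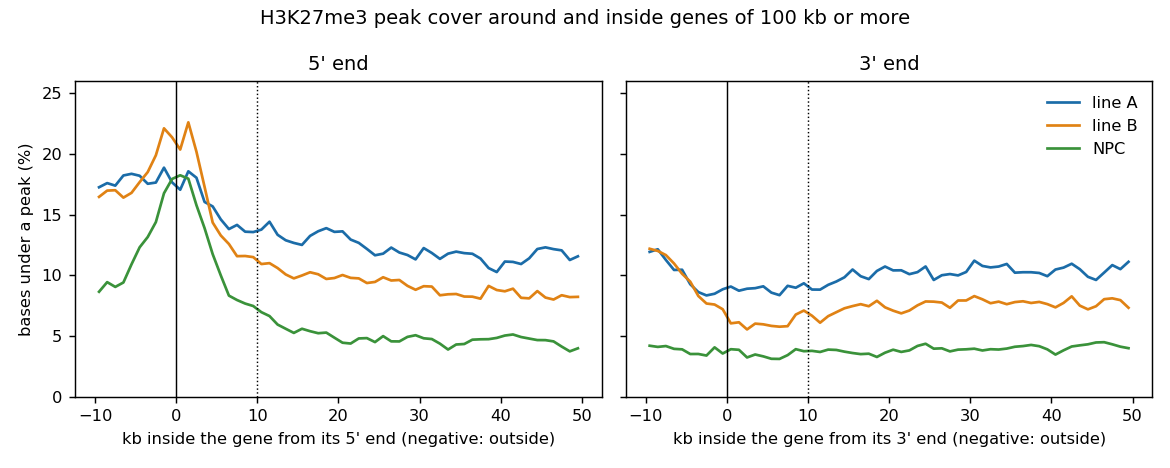
Share of bases under any H3K27me3 peak (y axis, %) in 1 kb bins from 10 kb outside to 50 kb inside the 5' end (left) and the 3' end (right) of 1772 genes of 100 kb or more. Each line is 1 peak list, the solid vertical line is the gene end and the dotted line is 10 kb, where deep peaks begin. Cover in NPC falls from 18.2% in the first kb to 4.57% at 40 to 50 kb, while the 3' end has no summit in any list.

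Genes with deep peaks carried a peak at their 5' end more often than genes without one. Genes longer than 20 kb, the only ones that can hold a deep peak, numbered 9575. Of these, line A had 2345 host genes, genes with a deep peak (24.5%), line B 2242 (23.4%) and NPC 1766 (18.4%). Strand was known for 7568 of the 9575, of which 24.7%, 26.3% and 18.4% had a peak within 2 kb of the 5' end. Among line A hosts of known strand the share was 61.4% (1103 of 1797, interval 59.1 to 63.6%). It was 64.5% among line B hosts (1111 of 1723, interval 62.2 to 66.7%) and 51.3% among NPC hosts (692 of 1349, interval 48.6 to 54.0%). Among the genes without a deep peak it was 13.3%, 15.1% and 11.2%. The gap was present in each class of gene length. In genes of 20 to 50 kb, 63.0% of line A hosts and 15.9% of the others had a 5' peak, and in genes over 500 kb 44.3% and 8.33%. For NPC the values were 44.3% and 12.6% in the shortest class and 60.3% and 7.89% in the longest. Hosts with a 5' peak were also covered further. In line A hosts of 100 kb or more, deep peaks covered a median of 26.7% of the record in 423 genes with a 5' peak and 4.26% in 308 without. The medians were 10.55% and 2.59% in line B, and 5.70% and 2.91% in NPC.

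A smaller set of host genes carried the mark inside with none near either end. No peak lay within 10 kb on either side of either end in 199 line A hosts (8.49%), 214 line B hosts (9.55%) and 355 NPC hosts (20.1%). The median distance of a deep peak from the nearest end of its host was 47.6 kb (line A), 45.6 kb (line B) and 57.5 kb (NPC). In NPC 34.4% lay 100 kb or more from both ends, against 26.5% in line A and 26.3% in line B. Other genes inside the hosts touched few of them. An end of another protein-coding gene lay within 2 kb of 142 line A deep peaks (0.687%), 128 of line B (0.714%) and 97 of NPC (0.996%). Non-coding gene records overlapped 7.066%, 7.018% and 7.004% of deep peaks, and these records hold 4.83% of the interior bases.

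Deep peaks stood in groups, above all in the fibroblasts. With deep peaks less than 3 kb apart counted as 1 run, 75.6% of line A, 73.3% of line B and 46.3% of NPC deep peaks shared a run with another. The fibroblast lists had more deep peaks in the same gene interiors, and they came from another assay. The part of either in this gap was not tested. Runs of 50 kb or more numbered 199 (line A), 156 (line B) and 48 (NPC). The longest line A run spanned 335.7 kb of Cacna1d, a calcium channel gene (chromosome 14, 30139799 to 30475480, 27 peaks). The longest line B run spanned 182.4 kb of Ano2, a chloride channel gene (chromosome 6, 125747601 to 125930001, 13 peaks), of which line A peaks covered 13.9%. The next line B run, 174.6 kb in the AMPA receptor gene Gria1 (chromosome 11, 57122270 to 57296853), was covered over 8.49% by line A and 0% by NPC peaks. In NPC the longest run spanned 231.1 kb of the teneurin gene Tenm4 (chromosome 7, 96393385 to 96624436, 12 peaks).

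The widest single deep peaks differed between the systems. NPC had the widest, a peak of 165.6 kb in Tenm4 (chromosome 7, 96458881 to 96624436) that began and ended at least 286.7 kb from the ends of the gene. Line A peaks covered 34.4% of it and line B peaks 6.16%. The next in NPC measured 140.5 kb in Thsd4 on chromosome 9, where line A peaks covered 2.05% and line B peaks 5.99%. The third measured 114.5 kb in Megf11 on the same chromosome, where they covered 73.1% and 59.8%. The widest of line B measured 113.3 kb in Dock3 (chromosome 9, 106961546 to 107074846), which encodes a neuronal activator of Rac. In line A it measured 80.6 kb in Skap1 (chromosome 11, 96528006 to 96608613), which encodes a T-cell adaptor. Both lay under the other fibroblast list over at least 89.2% of their width, and NPC peaks covered 0% of either.

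Host genes with the most deep peaks were very long, and many encode synaptic or ion channel proteins. Among the leaders of line A, the growth factor gene Nrg1 held 123, 4 and 79 deep peaks (line A, line B, NPC). The cation channel gene Trpm3 held 121, 38 and 5 and the teneurin gene Tenm2 118, 13 and 81. The postsynaptic scaffold gene Dlgap2 held 115, 30 and 56, Lrmda 110, 66 and 29, and Nckap5 108 in line A and 0 in the others. The RNA-binding protein gene Celf2 held 95, 4 and 0.

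The line B list was led by Kcnma1 (gene 16531, chromosome 14, 23292288 to 24005110), which encodes the pore of the large-conductance potassium channel. The gene held 105 deep peaks there, 95 in line A and 27 in NPC. Its peak counts were alike in the fibroblasts while its cover was not, with 54.0% of the record under deep peaks in line B and 22.3% in line A. Hpse2, a relative of the heparanase gene, held 83 in line B, 60 in line A and 56 in NPC, and the calcium channel gene Cacna1e 79, 54 and 48. The catenin gene Ctnna3, the receptor kinase gene Alk, Arhgap26, Fstl4 and Iqschfp held between 74 and 78 in line B. In line A these 5 held from 18 (Alk) to 89 (Iqschfp).

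In NPC the first was Dlg2 (gene 23859, chromosome 7, 90476188 to 92449246), with 217 deep peaks that covered 628.6 kb, or 31.9% of the record. Line A had 25 deep peaks there and line B 67, over 2.37% and 5.15%. Tenm2 (81 deep peaks) and Nrg1 (79) followed, then the channel partner gene Kcnip4 (71), the neurotrimin gene Ntm (61), which encodes a neuronal adhesion protein, and the synaptic scaffold gene Shank2 (57). The fibroblast lines A and B had 0 and 1 deep peaks in Ntm and 59 and 2 in Shank2. Dlgap2 and Hpse2 held 56 each.

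Deep-peak number followed gene length. Across host genes the rank correlation (Spearman) of record length with deep-peak number was 0.68 (line A, 2345 genes), 0.59 (line B, 2242) and 0.57 (NPC, 1766). Long genes offer more room, and the points share a list. The longest genes were hosts more often in NPC than in line A, and the shortest less often. Of the 216 genes over 500 kb, 58.3% (line A), 69.9% (line B) and 79.6% (NPC) were hosts, while of the 4850 genes of 20 to 50 kb the shares were 14.0%, 12.8% and 8.29%. The median host held 4 deep peaks in each fibroblast line and 3 in NPC, and 20.6%, 24.2% and 31.3% of hosts held exactly 1.

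**Figure D2:**
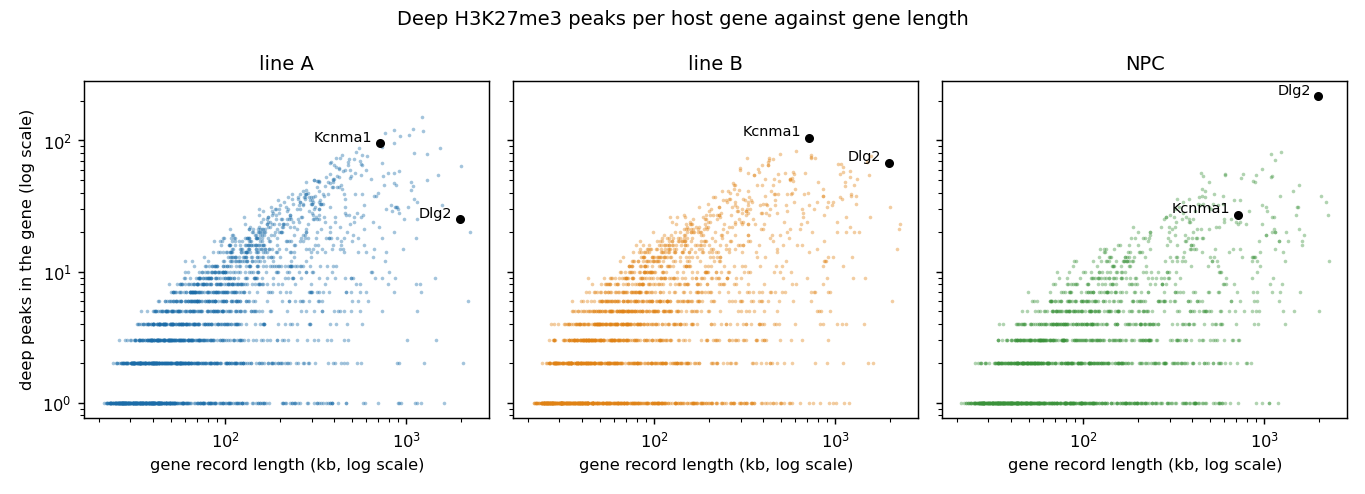
Deep peaks per host gene (y axis, log scale) against the length of the gene record (x axis, kb, log scale), 1 point per host gene and 1 panel per peak list, with Kcnma1 and Dlg2 in black. Kcnma1 holds 95, 105 and 27 deep peaks in line A, line B and NPC, and Dlg2 holds 25, 67 and 217.

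The share of a gene under deep peaks ranged widely. In the median host deep peaks covered 11.9% (line A), 8.06% (line B) and 4.99% (NPC) of the record. At least 50% was covered in 140 line A hosts, 104 line B hosts and 17 NPC hosts. Among records of 100 kb or more, the most covered in line A were Rnf220 (78.9%), a ubiquitin ligase gene, Skap1 (77.8%), Cacna1d (76.7%), Unc13b (75.7%) and the lipid kinase gene Pip5k1b (75.3%). NPC deep peaks covered 20.3% of Cacna1d and at most 3.48% of the other 4. In line B the leaders were Unc13b (79.9%), the neurofascin gene Nfasc (78.8%), the myosin gene Myo3b (77.5%), Tox2 (76.0%) and Lingo1 (75.8%). In NPC they were Lingo1 (81.3%), Tenm4 (74.2%), Megf11 (70.9%), the thyroglobulin gene Tg (69.7%) and Gsg1l (66.2%), which encodes an AMPA receptor partner. Tg was covered over 2.88% in line A and 0.0989% in line B.

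A gene under a single block that runs past the 10 kb limit has no deep peak, so a low deep-peak share does not show a bare gene. Peaks of any kind covered 95.5%, 90.6% and 94.1% of Tox2 in line A, line B and NPC, and its deep-peak shares were 7.49%, 76.0% and 0%. The axon guidance gene Slit1 likewise had no deep peak in NPC, where peaks of any kind covered 94.95% of it. The interior was at least 50% covered by peaks of any kind in 951 (line A), 784 (line B) and 263 genes (NPC). Of these, 311, 280 and 123 held no deep peak.

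Among 13 gene lists, ion channel genes were covered most by deep peaks in each system, and housekeeping genes hardly at all. The lists were not tested, and some genes stand in more than 1. Lists and members were chosen with earlier results of these data known, so their order may partly restate that choice. The channel list also holds channel partner genes such as Kcnip4. Of 43 potassium, sodium and calcium channel genes, the 3 systems (line A, line B, NPC) had 35 (81.4%), 34 (79.1%) and 31 hosts (72.1%), against 24.5%, 23.4% and 18.4% of all 9575 genes. Deep peaks covered 21.2%, 17.0% and 9.57% of the interiors of these channel genes, against 8.55%, 6.25% and 3.83% over all genes with each gene counted on its own. The channel genes are long, with a median record of 280.1 kb, and longer genes were hosts more often. Kcnma1, Cacna1d, Cacna1e and Kcnq1 led the list. Kcnq1, a potassium channel of heart and ear, was covered over 62.8%, 19.9% and 49.2%.

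Blood and immune genes had a host share above that of all genes in each system, but their cover was above that of all genes in the fibroblasts and below it in NPC. Of 30, the hosts numbered 24 (80%), 18 (60%) and 19 (63.3%), against 24.5%, 23.4% and 18.4% of all genes. Deep peaks covered 17.8%, 12.2% and 2.82% of their interiors, against 8.55%, 6.25% and 3.83%. Skap1, the T-cell kinase gene Prkcq, the B-cell factor gene Pax5 and Arhgap15 led. Prkcq was covered over 55.9% and 75.5% in the fibroblast lines and 0% in NPC. Of 69 developmental transcription factor genes, 34 (49.3%), 33 (47.8%) and 37 (53.6%) were hosts, with cover of 13.7%, 8.98% and 6.45%, each above the value of all genes. Their leaders were the nuclear receptor gene Rora, the zinc finger genes Zfhx3 and St18, and Sox6. Zfhx3 was covered over 30.3%, 14.9% and 38.0%. Of 19 muscle and heart genes 10 (52.6%), 12 (63.2%) and 13 (68.4%) were hosts, with cover of 8.73%, 5.41% and 4.69%. The blood, transcription factor and muscle lists have median records of 125.3, 187.2 and 142.1 kb. Among all genes of 100 to 200 kb, 36.3% (line A), 34.9% (line B) and 28.4% (NPC) were hosts.

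Lists of neuronal adhesion, receptor and guidance genes had host shares above the 24.5%, 23.4% and 18.4% of all genes, and in line A each was covered less than all genes were. Their genes are long. The receptor, guidance and cadherin lists have median records of 353.9, 205.8 and 223.8 kb. Among all genes of 200 to 500 kb, 47.6% (line A), 46.5% (line B) and 44.9% (NPC) were hosts. The guidance and cadherin lists lay below that class in line A and above it in line B and NPC, and the receptor list lay above it in each. Of 34 synaptic adhesion genes, with a median record of 971.3 kb, 17 (50%), 25 (73.5%) and 29 (85.3%) were hosts in line A, line B and NPC, near the 58.3%, 69.9% and 79.6% of all genes over 500 kb. Deep peaks covered 5.87%, 2.79% and 5.62% of their interiors, against 6.12%, 3.96% and 4.37% in all genes over 500 kb. Dscaml1, an immunoglobulin-type adhesion gene, was covered over 66.0% and 60.6% in line A and line B and over 5.91% in NPC. Of 28 glutamate and GABA receptor genes 17 (60.7%), 17 (60.7%) and 19 (67.9%) were hosts, with cover of 4.48%, 8.44% and 4.29%. Grik4, a kainate receptor gene, was covered over 45.9%, 70.4% and 6.98%. Gria1 was covered over 66.2% in line B and 5.12% in line A, and the GABA receptor gene Gabrb1 over 25.5% in NPC and at most 2.49% in the fibroblasts. Of 37 axon guidance genes 14 (37.8%), 21 (56.8%) and 18 (48.6%) were hosts, with cover of 3.62%, 4.18% and 6.36%. Of 24 cadherin genes 10 (41.7%), 12 (50%) and 17 (70.8%) were hosts, with cover of 5.51%, 4.22% and 2.70%. Of 24 glycan and heparan sulfate enzyme genes 14 (58.3%), 14 (58.3%) and 16 (66.7%) were hosts, with cover of 4.47%, 3.13% and 5.45%.

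Matrix and fibroblast genes carried no deep peak in line A, and their cover was below that of all genes in line B and above it in NPC. Of 30, line A had 0 hosts, which allows a share of up to 10.0% by the limit of 3 counts, line B had 6 (20%, against 23.4% of all genes) and NPC 9 (30%, against 18.4%). Their cover was 0%, 2.36% and 7.25%, against 8.55%, 6.25% and 3.83% over all genes. The median record of the matrix list was 90.3 kb. Among all genes of 50 to 100 kb, 28.8% (line A), 27.2% (line B) and 19.8% (NPC) were hosts. NPC deep peaks covered 39.0% of the collagen gene Col8a1, 34.4% of Col6a3 and 23.4% of Col5a1, where both fibroblast lines had no peak of any kind. Line B differed from line A at the laminin gene Lama4, with 14 deep peaks over 23.7% of the record against 0. Of 25 neural progenitor genes, the hosts numbered 8 (32%), 7 (28%) and 3 (12%), against 24.5%, 23.4% and 18.4% of all genes. The median record of this list was 177.6 kb, and 36.3%, 34.9% and 28.4% of all genes of 100 to 200 kb were hosts. Each host share of the progenitor genes lay below that of this length class. Their cover of 7.43%, 2.18% and 0.424% lay below that of all genes in each system, and Sox6 alone held 65 of their 143 deep peaks in line A. The 3 in NPC were Nrcam (6 deep peaks over 5.58%), Msi1 (2 over 9.37%) and Sox6 (1 over 0.0570%). Sox6 also stood in the transcription factor list and separated the fibroblast lines, with 65 deep peaks over 48.6% in line A and 0 in line B. Nfia, a glial factor gene, held 18 and 29 deep peaks in the fibroblast lines and 0 in NPC.

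Housekeeping genes were nearly free of deep peaks despite a median record of 130.6 kb. Of 47, 0 were hosts in line A, which allows a share of up to 6.38% by the same limit, against 24.5% of all genes. Vps8 was the 1 host in line B (2.13%, against 23.4% of all genes), with 2 deep peaks over 5.24%. NPC had 4 hosts (8.51%, against 18.4% of all genes), namely Exoc4, Lrba, Stag1 and Vps13b. Each held 1 to 3 deep peaks over at most 3.52% of the record. Deep peaks covered 0%, 0.147% and 0.332% of the interiors of the housekeeping genes, against 8.55%, 6.25% and 3.83% over all genes. Of 18 Polycomb genes 2 (11.1%), 3 (16.7%) and 2 (11.1%) were hosts, against 24.5%, 23.4% and 18.4% of all genes. Phc2, a subunit gene of Polycomb repressive complex 1, held 6, 4 and 2 deep peaks, and Sfmbt2 held 10, 14 and 0. Kdm2b in line B and Pcgf5 in NPC held 1 each. Ezh2 (gene 14056, chromosome 6, 47530274 to 47595270) had no base under a peak in any list.

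**Figure D3:**
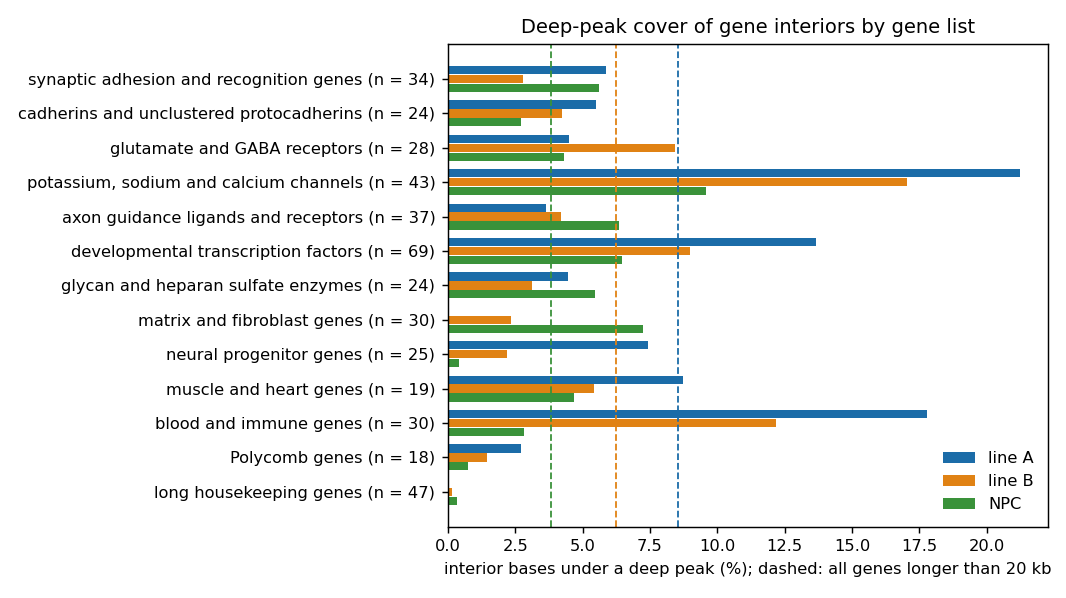
Share of gene interiors under deep peaks (x axis, %) for 13 gene lists, with the number of members longer than 20 kb in brackets, 1 bar per peak list. Dashed lines mark the share over all 9575 genes longer than 20 kb, 8.55% (line A), 6.25% (line B) and 3.83% (NPC). Channel genes reach 21.2% in line A, and matrix genes stand at 0% in line A and 7.25% in NPC. Lists were chosen with earlier results of these data known.

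Many deep peaks met a peak of another list. By an overlap of at least 1 bp, 40.03% of line A deep peaks lay on a line B peak (8277, interval 39.4 to 40.7%) and 19.3% on an NPC peak (3990, interval 18.8 to 19.8%). For line B, 49.7% lay on a line A peak (8906, interval 49.0 to 50.4%) and 17.9% on an NPC peak (3209, interval 17.3 to 18.5%). For NPC, 42.2% lay on a line A peak (4106, interval 41.2 to 43.2%) and 33.4% on a line B peak (3250, interval 32.4 to 34.3%). The peaks that were not deep gave 49.9%, 25.4%, 50.97%, 21.8%, 46.8% and 39.6% in the same order. Each deep value was the lower of its pair. With the peaks of each list split into 4 classes of width, the deep value was again the lower in each class, except for line B on line A, where it was the higher in the narrowest class and in the next to widest. In the narrowest 25% of line A peaks, 25.5% of deep and 31.8% of other peaks lay on a line B peak, and in the widest 25% the values were 62.2% and 74.3%. For line B in line A the values were 33.2% and 31.3% in the narrowest 25% and 76.3% and 78.7% in the widest.

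Deep peaks found in every system were the wider ones. Of line A deep peaks, 2154 met a peak in both other lists (10.4%, median width 4161.5 bp) and 10564 met none (51.1%, median width 943 bp). In line B 2273 met both (12.7%, 3040 bp) and 8083 none (45.1%, 713 bp), and in NPC 2436 met both (25.02%, 2002.5 bp) and 4817 none (49.5%, 1155 bp). With an overlap of at least 50% required of each peak in a pair, 9.16% of line A deep peaks met a line B peak and 8.05% of NPC deep peaks met a line A peak. Wider peaks meet others more easily by size alone.

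Shares of common host genes were higher than those of common peaks. A gene is a wider target than a peak and can be shared with no peak in common. Longer genes were also hosts more often in every list, so the gap by itself says nothing about the peaks. Line A and line B had 1651 hosts in common, 70.4% of the line A hosts and 73.6% of those of line B. Line A and NPC shared 1182 (50.4% and 66.9%), and line B and NPC 1109 (49.5% and 62.8%). A deep peak in any list stood in 3335 genes and a deep peak in every list in 924, whose median record measured 109.7 kb against 39.9 kb for the 6240 genes with none. Within these 924 genes 47.6% of line A deep peaks lay on a line B peak (interval 46.6 to 48.5%) and 29.2% on an NPC peak (interval 28.4 to 30.1%). A common host did not always mean a common place. Of the 1109 hosts shared by line B and NPC, 246 (22.2%) had no line B deep peak that met an NPC peak, and of the 1651 shared by the fibroblast lines 190 (11.5%) had no line A deep peak that met a line B peak.

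Hosts in all 3 lists with the highest smallest share were Lingo1, Megf11, Ablim3, Dnajc5b, Tdrd12, Lgr6, Phf24 and Wdfy4. Lingo1 (chromosome 9, 56618460 to 56796310) was covered by deep peaks over 62.8%, 75.8% and 81.3% in line A, line B and NPC, by 19, 12 and 5 peaks. It was covered further with fewer and longer peaks in NPC. Megf11, which encodes a receptor that spaces retinal neurons, was covered over 59.1%, 59.9% and 70.9%, and the actin-binding gene Ablim3 over 66.7%, 65.5% and 48.1%. Lgr6 encodes a receptor for R-spondins, Tdrd12 a germline protein of the piRNA pathway and Wdfy4 a protein of antigen-presenting cells. Their shares and those of Dnajc5b and Phf24 lay between 38.8% (Wdfy4 in NPC) and 61.9% (Wdfy4 in line A).

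Other genes were covered in 1 system with no base of the record under a peak elsewhere. By deep peaks alone and with predicted genes kept, 727 of the 9575 genes longer than 20 kb (7.59%) were hosts in both fibroblast lines and not in NPC. Hosts in line A alone numbered 436 (4.55%), in line B alone 406 (4.24%) and in NPC alone 399 (4.17%). Leaving out predicted genes, 506 hosts of both fibroblast lines had no NPC peak anywhere in the record. Skap1 (77.8% in line A and 59.9% in line B), Pip5k1b (75.3% and 57.2%), the palmitoyltransferase gene Zdhhc14 (72.0% and 55.1%) and the active-zone gene Rims2 (65.7% and 72.2%) were covered over most of their length in both. Rora (chromosome 9, 68653404 to 69388246) held 67 and 73 deep peaks over 31.3% and 23.5%. Celf2 entered on line A almost alone, with 46.8% against 0.169%.

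Covered in line A alone, with no base of the record under a peak of another list, were 203 genes. Those with the most covered bases were Nckap5, Csgalnact1 (a chondroitin sulfate enzyme gene), Fras1 (a basement membrane gene), Ttll11, Unc79 and Arfgef3. Arfgef3 was covered over 63.5% by 21 deep peaks and Csgalnact1 over 45.9% by 47. Covered in line B alone were 204 genes, and the first 6 by covered bases were Ubash3b (51.7%), which encodes a phosphatase of T-cell signalling, the muscle and neuron factor gene Mef2c (42.2%), Col28a1 (32.9%), the homeobox gene Pknox2 (24.5%), Rnf165 (57.5%) and Stk32a (47.3%). Covered in NPC alone were 271 genes, of which the first 6 follow. Hs3st4, a heparan sulfate enzyme gene (chromosome 7, 123982366 to 124398989), was covered over 59.0% by 18 deep peaks, Gse1 over 48.6% by 34, and Adamtsl3 over 41.8% by 25. The myosin gene Myo1d was covered over 38.4%, the cytoskeletal adaptor gene Sorbs2 over 31.7% and Luzp2 over 20.3%.

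**Figure D4:**
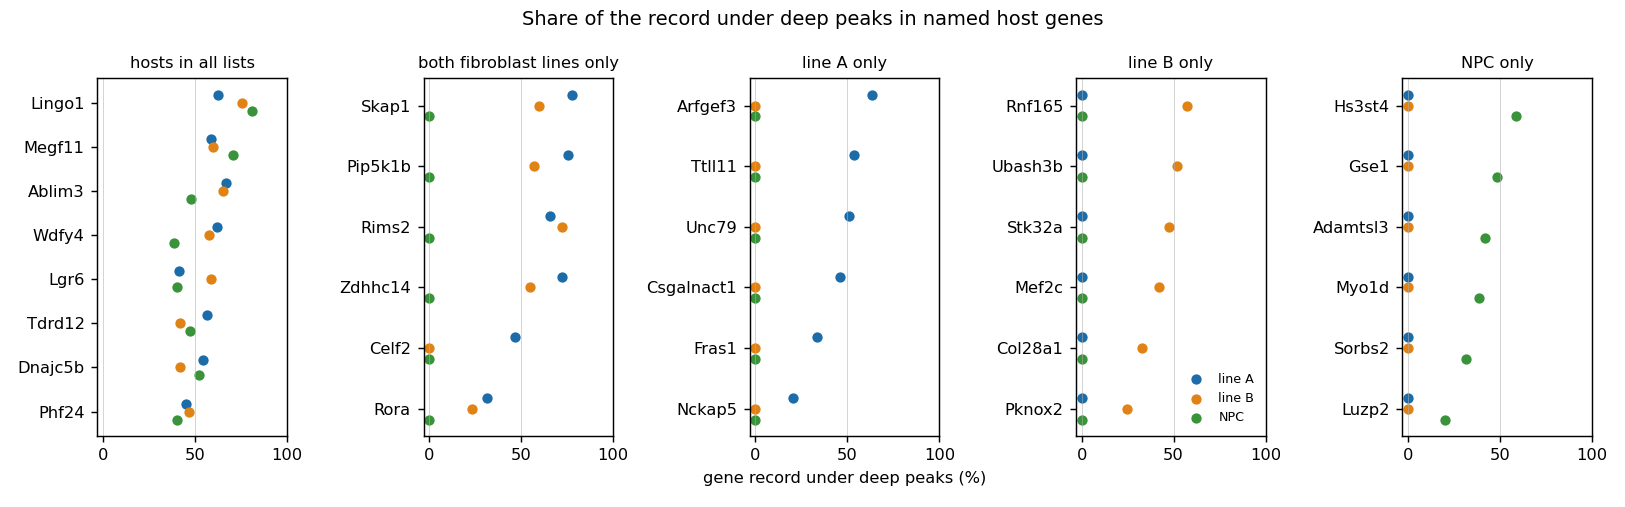
Share of the gene record under deep peaks (x axis, %) in named host genes, 1 row per gene and 1 point per peak list (blue line A, orange line B, green NPC), in panels for genes hosting in all lists and for genes with no base under a peak in the lists that lack them. Lingo1 reaches 81.3% in NPC, Skap1 77.8% in line A, Rnf165 57.5% in line B and Hs3st4 59.0% in NPC.

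**Figure D5:**
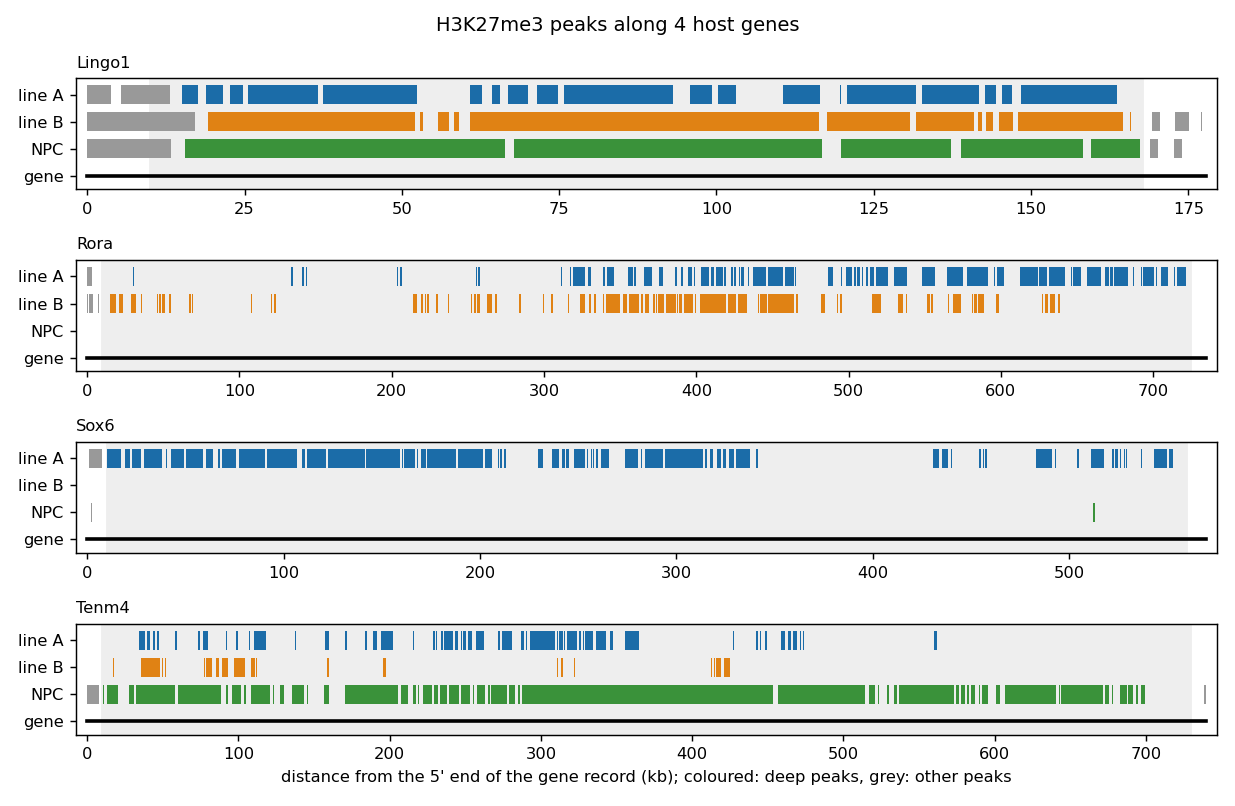
H3K27me3 peaks along Lingo1, Rora, Sox6 and Tenm4 (x axis, kb from the 5' end of the record), with deep peaks in colour, other peaks in grey and the interior shaded; narrow peaks are drawn at a minimum width. Lingo1 is covered in all lists, Rora in both fibroblast lines and not in NPC, Sox6 over 48.6% in line A, and Tenm4 over 74.2% in NPC.

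Chromosome 7 stood apart from the other autosomes in NPC and line B. NPC had 34.7 deep peaks per Mb of gene interior there, against 6.85 to 19.2 on the other autosomes, and line B had 14.6 against 19.3 to 35.3. Line A had 34.9, within its range of 21.4 to 39.6. Of the NPC peaks that were not deep, 13.5% lay on chromosome 7, and of the NPC deep peaks 13.1%. Of the genes covered in NPC alone, 34 of 271 lay there (12.55%), against 6.62% of all genes over 20 kb, and 3 of the 204 covered in line B alone (1.47%). Dlg2, Tenm4, Shank2, Gsg1l, Hs3st4, Adamtsl3, Luzp2, Sox6, Kcnq1 and Tdrd12 all lie on chromosome 7. The part that this chromosome has in their values was not tested.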

How the data were processed

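The deposited files were 3 peak lists that give chromosome, start and end with no score or other unit. Per the submitters' processing notes the authors used tools that include Bowtie2 (2.2.9), MACS2 (2.1.1.20160309), Picard and deepTools. The notes list mm10 and dm6 as builds without assigning roles. Threshold, control and pooling of the peak calls are not stated there. Nothing in the labels ties replicates to separate cultures. Gene records came from RefSeq GRCm38.p6 (20665 autosomal and protein-coding), and starts and strand from its promoter table, which held 16457 of these genes. Exons and introns were not told apart. A peak inside several records (181 for line A, 160 for line B, 81 for NPC) counted once. The covered share is deep-peak length over record length. All 419 symbols of the 13 gene lists matched. Members and lists were chosen with earlier results of these data known.

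Genes were named by rule, without predicted genes: the 8 with most deep peaks per list, the 5 most covered of 100 kb or more per list, the 8 with the highest smallest share among hosts in all lists, the 6 with most covered bases in each pattern of lists, up to 4 members of each gene list, hosts of the 3 widest peaks per list, and Ezh2. One gene that the rule names is not reported here. The genes of printed starts, hosts of the longest runs (Ano2), Msi1 and Vps13b, and the mapped genes were chosen after their values were seen. Intervals are 95% exact binomial (Clopper-Pearson). Python 3.11.15, pandas 2.3.3 and scipy 1.17.1 were used, and the peak rule was tested on simulated peaks. Alternatives were other distances from the gene ends, an equal number of widest peaks, joined peaks, no predicted genes, no deep peaks near another gene's end, no chromosome 7 and a stricter overlap.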

Additional observations from a re-analysis of the deposited data

How the results depend on the processing

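No paired analysis was possible because the peak lists belong to no single library, and no replicate could be left out for the same reason. Depth is unknown, so it limits every statement about missing peaks. The numbers of deep peaks and hosts, the median width, the interior cover and the sharing between lists were recomputed under each alternative that applies, and the hosts in each gene list under a distance of 20 kb and under joined peaks. Of these, counts not given here stayed within 1.5 times, and the other values within their 95% interval. Runs, 5' ends, internal starts, cover of single genes and genes covered in 1 system were not recomputed.
With a distance of 5 kb from the gene ends, interior cover was 8.48% (line A), 6.28% (line B) and 3.75% (NPC). Shares on other lists were 41.6% (line A on line B), 20.04% (line A on NPC), 50.5% (line B on line A), 44.1% (NPC on line A) and 35.04% (NPC on line B). With 20 kb, cover was 8.54%, 6.05% and 3.98%, the line B median width 1004 bp, and the shares 37.8%, 18.6%, 47.8%, 38.7% and 30.6% in that order.
With the 44807 widest peaks of each list, line A kept 10445 and line B 9372 deep peaks, of median width 3293 and 2476.5 bp, over 7.59% and 5.69% of the interiors. The shares were then 42.9%, 26.4%, 51.9%, 35.2% and 28.2%, and 24.03% for line B on NPC. With peaks less than 3 kb apart joined, line A had 8259 and line B 7481 deep peaks, the median widths were 2888, 1935 and 1845 bp (NPC) and cover was 8.02%, 6.03% and 4.08%. The shares were 40.8%, 23.9%, 48.9%, 43.5%, 35.2% and 22.1%.
Without predicted genes, cover was 8.50%, 6.25% and 3.84%, and without deep peaks near another gene's end 8.42%, 6.202% and 3.77%. Without chromosome 7, cover was 8.45%, 6.48% and 3.36%, and the shares were 41.5% (line A on line B), 17.7% (line A on NPC), 16.8% (line B on NPC), 43.8% (NPC on line A) and 36.6% (NPC on line B).
With 50% of both peaks required, the shares fell to 9.16% and 3.74% (line A on line B and NPC), 10.6% and 3.06% (line B on line A and NPC) and 8.05% and 5.61% (NPC on line A and line B). The cause of these shifts was not tested. Host counts, hosts shared, and the hosts in each gene list under the 20 kb distance and under joined peaks all stayed within 1.5 times.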
